A study of Mus musculus with 4 samples.

Results

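Vitamin C is made in mouse liver from glucuronate, and urate is broken down there to allantoin. The 10 genes described here encode steps or transporters of these routes. They were taken by symbol from a table of 56748 genes: Gulo, Rgn, Slc23a1 and Slc23a2 for ascorbate, and Uox, Urad, Allc, Xdh, Pnp and Gda for purine to urate and allantoin. All 10 had a row, and 9 were tested. The list was chosen by the genes' roles with their FPKM changes between these same JIB-04 and untreated livers already known. Its tests below therefore place each gene within the fit across all genes and are not independent evidence.

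The libraries came from whole livers of NSG mice, an immunodeficient strain without mature B, T and natural killer cells, labelled WT for genotype. JIB-04 mice (2 libraries) had received JIB-04, which inhibits histone demethylases of the Jumonji family, by oral gavage at 55 mg/kg, 2 times a week for 5 doses. Untreated mice (2 libraries) received nothing, so a vehicle or gavage effect and the drug cannot be told apart. Each library is the liver of a separate mouse, per the series' design text. The animals' age is not given in the sources used here.

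Ascorbate synthesis starts from UDP-glucose, which is oxidized to UDP-glucuronate, released as glucuronate and reduced to gulonate. Regucalcin, the product of Rgn, closes gulonate to its lactone, and gulonolactone oxidase, the product of Gulo, carries out the final step. Humans lack a working gulonolactone oxidase and need dietary vitamin C. For purines, nucleoside phosphorylase (Pnp) frees hypoxanthine and guanine, guanine deaminase (Gda) turns guanine into xanthine, and xanthine dehydrogenase (Xdh) makes urate. In mouse liver urate oxidase (Uox), the hydrolase Urah and the decarboxylase Urad then convert urate to allantoin. Humans lack a working urate oxidase and excrete urate.

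Gulo, Uox and Urad fell in JIB-04 liver, each to just under 50% of its untreated level. The fold of the mean FPKM, JIB-04 over untreated, was 0.496 for Gulo, 0.469 for Uox and 0.465 for Urad. FPKM counts fragments per kilobase of gene length, scaled to sequencing depth. Among the 9 tested members 3 were called lower, 0 higher and 6 neither way, where called means a Benjamini-Hochberg adjusted p under 0.05 in limma. At an unadjusted p under 0.05, 4 members were lower and 0 higher, and limma's voom fit on recovered reads called the same 3. Of all 10819 tested genes 0.619% were called lower and 1.53% higher, 6.47% were lower and 9.06% higher at an unadjusted p under 0.05, and voom called 1.86% lower and 3.23% higher. Because the members were chosen with this comparison known, nothing is read from the difference between these shares. With 2 libraries a group, the smallest two-sided p of an exact permutation test is 0.333, so each call rests on the moderated fit.

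The promoters of Uox and Urad are shown because these genes of the same route fell together. Each window is 300 bases of the RefSeq sequence for build GRCm38.p6, written 5′ to 3′ on the gene's strand. Lower case marks 250 bases before the annotated start, and capitals mark the 50 bases from the start onward. The Uox window is chr3:146596899-146597198 on the plus strand, and the Urad window is chr5:147322391-147322690 on the minus strand.
Uox: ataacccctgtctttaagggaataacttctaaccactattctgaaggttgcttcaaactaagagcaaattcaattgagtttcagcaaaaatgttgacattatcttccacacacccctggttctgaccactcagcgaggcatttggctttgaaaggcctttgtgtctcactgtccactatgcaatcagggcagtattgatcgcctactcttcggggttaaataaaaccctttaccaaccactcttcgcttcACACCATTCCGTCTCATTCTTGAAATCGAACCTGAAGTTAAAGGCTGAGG
Urad: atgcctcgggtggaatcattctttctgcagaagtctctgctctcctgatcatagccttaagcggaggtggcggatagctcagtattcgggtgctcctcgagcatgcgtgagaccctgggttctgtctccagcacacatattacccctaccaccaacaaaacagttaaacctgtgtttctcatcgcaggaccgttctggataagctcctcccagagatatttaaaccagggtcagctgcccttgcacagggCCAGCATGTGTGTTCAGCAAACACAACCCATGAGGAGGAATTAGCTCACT

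These windows held no match, on either strand, to any of 5 motifs searched. The motifs were the nuclear receptor hexamers AGGTCA and AGTTCA, the antioxidant response core TGACNNNGC, the E-box CACGTG and the TATA box TATAAA. In 32851 promoter windows of the same length, 16.3%, 14.0%, 12.4%, 7.15% and 13.6% held them, in that order. Of the 10 members 6 had windows that were searched, 7 windows in all. Only Gda had a match among them, 1 AGTTCA that began 227 bases before the start. No match says only that these letters are absent from these windows.

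Gulo (ENSMUSG00000034450, chromosome 14, 66224235 to 66246656 on GRCm39, minus strand) had 106 and 103 FPKM in JIB-04 1 and 2, against 216 and 204 FPKM in untreated 1 and 2. The highest JIB-04 liver lay well below the lowest untreated liver, and livers within a group differed little. Mean levels were 104 ± 2.15 FPKM in JIB-04 and 210.1 ± 8.06 FPKM in untreated liver (SD, n = 2 each). On the log2(FPKM + 1) scale the gene fell by 1.005 (SE 0.122, 95% interval -1.30 to -0.71, limma adjusted p = 0.0140). The values rest on 10255 and 8531 reads in JIB-04 and 17910 and 17475 reads in untreated liver. Its log2 change was lower than that of all but 0.675% of tested genes. The call ended without JIB-04 1 (limma adjusted p = 0.128), without JIB-04 2 (0.148), without untreated 1 (0.0552) and when genes of low level were kept in the fit (0.137). It held without untreated 2 (0.0325), and the range over 16 alternatives was 0.000609 to 0.148.

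Rgn (ENSMUSG00000023070, chromosome X, 20416026 to 20428328, plus strand), whose product acts just before gulonolactone oxidase, was the most abundant member. It had 698 and 690.0 FPKM in JIB-04 1 and 2, against 899 and 1132 FPKM in untreated 1 and 2. The groups did not overlap, and the untreated livers were farther apart than the JIB-04 livers. Means were 694 ± 5.57 FPKM in JIB-04 and 1015 ± 165 FPKM in untreated liver (SD, n = 2 each), a fold of 0.683. The log2 change of -0.54 (SE 0.162, 95% interval -0.93 to -0.15) did not pass the test across all genes (limma adjusted p = 0.171; 0.0788 to 0.457 over 16 alternatives). Without untreated 2 it was -0.37 and without untreated 1 it was -0.71. The ratio of Gulo to Rgn FPKM was 0.151 and 0.149 in JIB-04 1 and 2 and 0.240 and 0.181 in untreated 1 and 2, given as a description.

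The sodium-dependent ascorbate transporters were not called. Slc23a1 (chromosome 18, 35747657 to 35760297), the transporter of absorptive epithelia and liver, had 30.4 and 29.7 FPKM in JIB-04 1 and 2, against 22.2 and 33.5 FPKM in untreated 1 and 2. Both JIB-04 values fell between the untreated ones. Its log2 change was 0.13 (95% interval -0.34 to 0.61, limma adjusted p = 0.821). Slc23a2 (chromosome 2, 131894416 to 131987028), the widely expressed form, had 3.71 and 4.05 FPKM in JIB-04 1 and 2, against 4.62 and 3.39 FPKM in untreated 1 and 2. The groups overlapped here too, with a log2 change of -0.03 (95% interval -0.39 to 0.34, adjusted p = 0.966). These intervals leave room for changes in either direction. The related gene Slc23a3 held 0 and 20 reads in JIB-04 1 and 2, against 5 and 7 reads in untreated 1 and 2. Slc23a4 held 0 and 11 reads in JIB-04 1 and 2, against 0 and 2 reads in untreated 1 and 2. Both were below the filter and were not tested.

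**Figure D1:**
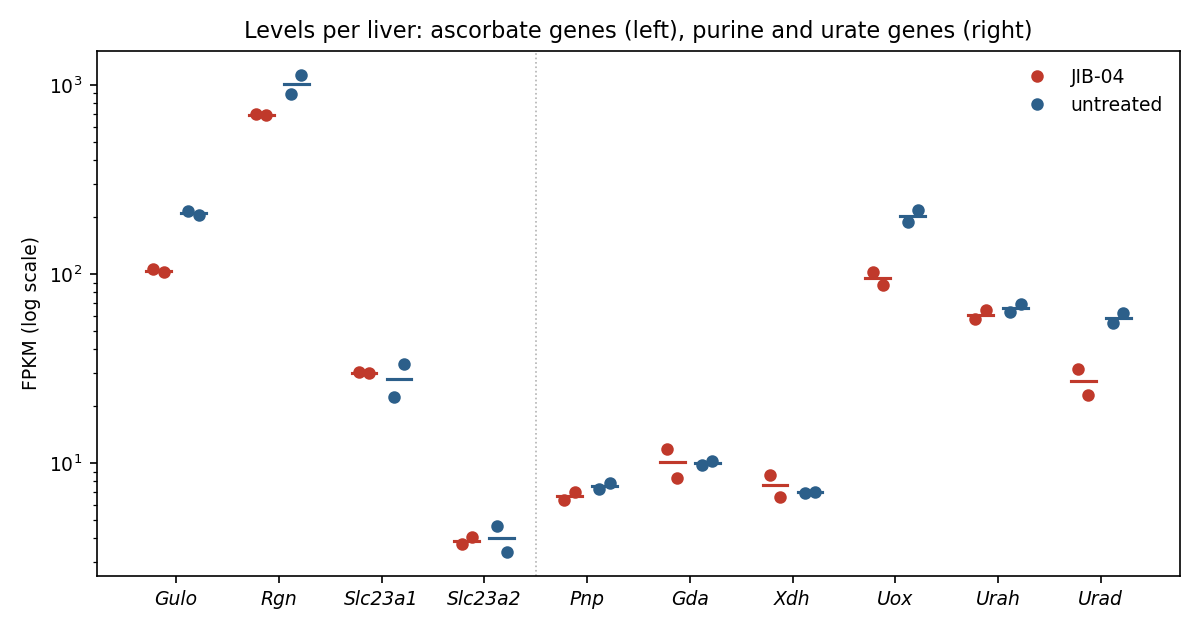
FPKM on a log scale for 9 members and Urah, with a point for each liver and a bar at the group mean, JIB-04 left of untreated. Gulo, Rgn, Uox, Urad and Pnp have both JIB-04 points below both untreated points, while Slc23a1, Slc23a2, Gda, Xdh and Urah overlap; Allc, at 0 reads, is not drawn.

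Uox (ENSMUSG00000028186, chromosome 3, 146276181 to 146338060, plus strand), which begins urate breakdown inside peroxisomes, had 103 and 86.8 FPKM in JIB-04 1 and 2, against 187 and 217 FPKM in untreated 1 and 2. Every JIB-04 value was below every untreated value. The gene averaged 94.8 ± 11.3 FPKM in JIB-04 and 202 ± 21.0 FPKM in untreated liver (SD, n = 2 each), from 15959 to 22069 reads in JIB-04 and 34422 to 41082 reads in untreated liver. It fell by 1.09 on the log2(FPKM + 1) scale (SE 0.148, 95% interval -1.44 to -0.73, limma adjusted p = 0.0205). The call ended without JIB-04 1 (0.125), without JIB-04 2 (0.180), without untreated 2 (0.0541) and with low genes kept (0.200). It held without untreated 1 (0.0393), and the lowest of 16 alternatives was 0.000863.

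Urad (ENSMUSG00000075543, chromosome 5, 147251794 to 147259250, minus strand), whose product carries out the last step to allantoin, had 31.6 and 23.0 FPKM in JIB-04 1 and 2, against 55.0 and 62.4 FPKM in untreated 1 and 2. The groups did not overlap, and JIB-04 2 was the lowest liver for Urad as for Uox. Means were 27.3 ± 6.06 FPKM in JIB-04 and 58.7 ± 5.24 FPKM in untreated liver (SD, n = 2 each). The gene fell by 1.09 (SE 0.173, 95% interval -1.51 to -0.68, limma adjusted p = 0.0351), on 647 to 1037 reads in JIB-04 and 1545 to 1806 reads in untreated liver. Its call was the weakest of the 3. It ended without JIB-04 1 (0.0929), JIB-04 2 (0.176), untreated 1 (0.0772) or untreated 2 (0.0958), without the filter (0.265) and with neither trend nor robust moderation (0.0569), and the lowest of 16 alternatives was 0.00174.

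Urah (ENSMUSG00000025481, chromosome 7, 140414931 to 140417879), which encodes the enzyme between urate oxidase and the decarboxylase, was examined as a companion gene. It had 57.7 and 64.1 FPKM in JIB-04 1 and 2, against 63.0 and 69.4 FPKM in untreated 1 and 2. The groups overlapped, and the log2 change of -0.12 (SE 0.127, 95% interval -0.42 to 0.18) was not called (limma adjusted p = 0.736; 0.534 to 0.967 over 16 alternatives). This interval does not reach the log2 changes of Uox and Urad. The ratio of Uox to Urah FPKM was 1.78 and 1.35 in JIB-04 1 and 2 and 2.97 and 3.13 in untreated 1 and 2. The ratio of Urad to Urah was 0.547 and 0.359 in JIB-04 and 0.873 and 0.899 in untreated liver. By contrast, the ratio of Uox to Urad was 3.26 and 3.77 in JIB-04 and 3.41 and 3.48 in untreated liver, so these groups overlapped.

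**Figure D2:**
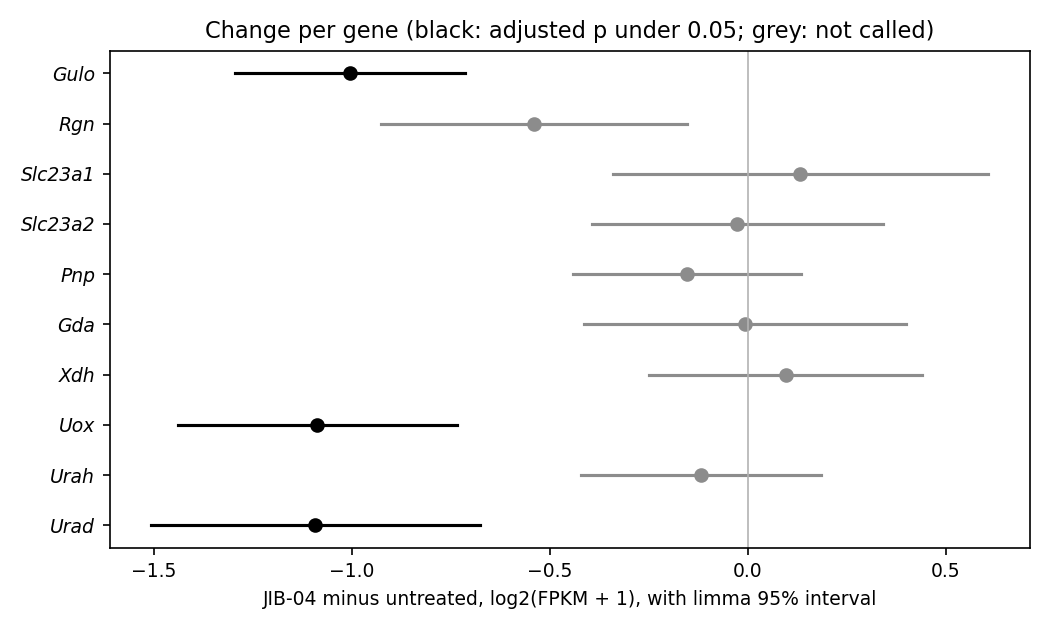
JIB-04 minus untreated on the log2(FPKM + 1) scale, with the limma 95% interval, for 9 members and Urah in route order. The intervals of Gulo, Uox and Urad end at -0.71, -0.73 and -0.68, and that of Rgn at -0.15, while the other 6 span 0.

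The enzymes that make urate showed no called difference. Xdh (chromosome 17, 74190890 to 74257191) had 8.61 and 6.64 FPKM in JIB-04 1 and 2, against 6.96 and 7.06 FPKM in untreated 1 and 2. The untreated values lay between the JIB-04 ones, and the log2 change was 0.10 (95% interval -0.25 to 0.44, limma adjusted p = 0.825). Uox stood 11.9 and 13.1 times above Xdh in FPKM in JIB-04 1 and 2, against 26.9 and 30.8 times in untreated 1 and 2. Gda (chromosome 19, 21368671 to 21450809) had 11.8 and 8.31 FPKM in JIB-04 1 and 2, against 9.70 and 10.2 FPKM in untreated 1 and 2. Again the untreated livers fell inside the JIB-04 pair, with a log2 change of -0.01 (95% interval -0.41 to 0.40, adjusted p = 0.993).

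Pnp (chromosome 14, 51168539 to 51202694) had 6.38 and 7.06 FPKM in JIB-04 1 and 2, against 7.30 and 7.85 FPKM in untreated 1 and 2. The groups did not overlap but were close, with a log2 change of -0.15 (95% interval -0.44 to 0.14, limma adjusted p = 0.633). Of the distinct 50-base stretches in its GENCODE M21 coding transcripts, 25.8% also occur in other genes, chiefly Gm49342 and Pnp2. Reads from that portion could be shared out differently by another counter, so the Pnp level is uncertain. The near copy Pnp2 held 2 and 5 reads in JIB-04 1 and 2, against 4 and 3 reads in untreated 1 and 2. Pnp2 (51193449 to 51202206) lies within the span of Pnp on the same strand, so its counts are uncertain too. Gulo, Rgn, Uox, Urad, Xdh and Slc23a2 shared 0% of such stretches with other genes.

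Allc (chromosome 12, 28603754 to 28632522), which encodes allantoicase, an enzyme named for the breakdown of allantoate, held 0 reads in all 4 libraries. A count of 0 allows up to 3 reads, or 0.0467 and 0.0545 FPKM in JIB-04 1 and 2 and 0.0545 and 0.0529 FPKM in untreated 1 and 2, for counting error only. No fold is given for it.

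Among the 9 tested members, 5 had no overlap between groups with JIB-04 lower (Gulo, Rgn, Uox, Urad and Pnp) and 0 with JIB-04 higher. Of all tested genes 21.8% and 24.6% did so. By mean FPKM over the 4 libraries Rgn exceeded 99.5% of tested genes, Gulo 97.3%, Uox 97.1%, Urad 90.8%, Slc23a1 87.2%, Gda 70.0%, Xdh 62.0%, Pnp 61.2% and Slc23a2 43.5%. The library values of Gulo and Uox overlapped in both groups, in JIB-04 liver by less than 1 FPKM, and those of Xdh and Pnp overlapped in JIB-04 liver. The deposited length of Uox is 5007 bases and that of Xdh 9175 bases, against longest coding transcripts of 2737 and 4600 bases in GENCODE M21. The deposited length is also the longer for Slc23a2 (7951 against 6364), Pnp (3979 against 2942), Gda (6235 against 5428) and Slc23a1 (3238 against 3026). This lowers the FPKM of all these genes relative to Gulo, Rgn and Urad, where the lengths are equal.

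Uox and Slc23a1 were checked for overlapping genes on the opposite strand because the strand setting of the counting is not given in the sources used here. Uox spans Dnase2b, a deoxyribonuclease gene on the opposite strand, but the annotated exons of GENCODE M21 share 0 bases. Dnase2b, chosen after its values were seen, had 4.24 and 3.76 FPKM in JIB-04 1 and 2, against 7.80 and 7.43 FPKM in untreated 1 and 2. Dnase2b fell by 0.79 on the log2 scale (limma adjusted p = 0.0305). It held 385 to 507 reads in JIB-04 and 783 to 798 reads in untreated liver, far fewer than Uox held. Whether reads from Uox outside its exons were counted on Dnase2b was not tested. Slc23a1 overlaps the end of Paip2 on the opposite strand, and their exons also share 0 bases.

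Marker lists of cell types were read as a description only. In bulk liver they cannot tell fewer cells of a type from less RNA per cell. Hepatocyte markers such as albumin summed to 60335 and 54273 FPKM in JIB-04 1 and 2, against 83958 and 80607 FPKM in untreated 1 and 2. Their log2 changes were below 0 in 9 of 10, with a median of -0.24 and a lowest value of -0.80. Over all tested genes 5260 of 10819 were below 0. Limma called 0 of the hepatocyte markers, 4 were lower at an unadjusted p under 0.05 (6.47% of all tested genes were), and voom called 1 lower (1.86% of all). The part of this shift in the fall of Gulo, Uox and Urad was not tested. Negative changes were not seen in hepatocyte markers alone. They were seen in 8 of 8 Kupffer cell and macrophage, 5 of 8 endothelial, 4 of 5 tested stellate and 5 of 5 tested red cell markers. Neutrophil markers had 1 of 2 tested below 0 and bile duct markers 0 of 1. Median log2 changes were -0.15 for Kupffer cell and macrophage, -0.09 for endothelial, -0.24 for stellate and -1.14 for red cell markers. For neutrophil and bile duct markers they were 1.55 and 0.11. Endothelial markers summed to 89.8 and 94.5 FPKM in JIB-04 and 112 and 87.9 FPKM in untreated liver, with 0 of 8 called by limma or voom and 0 at an unadjusted p under 0.05. Kupffer cell and macrophage markers gave the same counts at these cutoffs. They summed to 245 and 300.3 FPKM in JIB-04 and 322 and 274 FPKM in untreated liver. Stellate cell markers summed to 41.3 and 39.5 FPKM in JIB-04 and 56.5 and 43.4 FPKM in untreated liver, and bile duct markers to 36.1 and 43.8 FPKM in JIB-04 and 40.1 and 34.4 FPKM in untreated liver. Red cell markers summed to 655 and 1782 FPKM in JIB-04 and 2952 and 1845 FPKM in untreated liver, and neutrophil markers to 44.4 and 71.7 FPKM in JIB-04 and 26.6 and 6.90 FPKM in untreated liver. Limma called 0 of 5 tested stellate, 0 of 5 red cell and 0 of 2 neutrophil markers, with 1 lower, 1 lower and 1 higher at an unadjusted p under 0.05, and voom called 1 lower, 1 lower and 0. Of 8 lymphocyte and natural killer markers 5 were at 0 in every library.

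Genes around the members were read from 8 companion lists of 116 symbols, all of them matched to a row by symbol or synonym and 96 of them tested. Limma called 2 of these higher and 1 lower, and the median log2 change was 0.05, against 0.01 over all tested genes. At an unadjusted p under 0.05, 21 were higher and 8 lower, and voom called 9 higher and 2 lower. Over all tested genes limma called 1.53% higher and 0.619% lower. At that unadjusted p 9.06% were higher and 6.47% lower, and voom called 3.23% higher and 1.86% lower. These shares are the background for each companion list.

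Of 11 tested genes of glucuronate supply and gulonate use, limma called 0, and 3 were higher at an unadjusted p under 0.05. Positive changes were seen in 10 (median 0.08), against 5559 of the 10819 tested genes. The list mixes supply with use of gulonate, so not all of its genes lie upstream of Rgn and Gulo. Akr1a1, an aldehyde reductase that turns glucuronate into gulonate, had 131 and 151 FPKM in JIB-04 1 and 2, against 124 and 123 FPKM in untreated 1 and 2 (log2 change 0.19, adjusted p = 0.576). The JIB-04 livers were both above the untreated livers, unlike for Gulo but as for 24.6% of all tested genes. Dcxr, which reduces L-xylulose, averaged 99.97 ± 4.67 FPKM in JIB-04 and 96.3 ± 0.885 FPKM in untreated liver (SD, n = 2 each, limma adjusted p = 0.895). The aldehyde dehydrogenase Aldh2 averaged 337 ± 15.05 FPKM in JIB-04 and 328 ± 16.3 FPKM in untreated liver (adjusted p = 0.932). Ugdh, which makes UDP-glucuronate and was chosen after its values were seen, had 37.2 and 27.5 FPKM in JIB-04 1 and 2, against 11.1 and 16.3 FPKM in untreated 1 and 2. Its groups did not overlap (log2 change 1.19, limma adjusted p = 0.0649), and voom called it higher, as it did Cryl1 and Gusb.

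For ascorbate recycling and dehydroascorbate uptake limma called 0 of 10 tested genes (median 0.13), with 4 higher and 1 lower at an unadjusted p under 0.05. Voom called Cyb5a and Pdia3 higher. Cyb5a, the microsomal electron carrier cytochrome b5, averaged 503 ± 48.8 FPKM in JIB-04 and 335 ± 14.2 FPKM in untreated liver (SD, n = 2 each; limma adjusted p = 0.106). Its reductase Cyb5r3 averaged 122 ± 14.3 FPKM in JIB-04 and 93.2 ± 13.5 FPKM in untreated liver (adjusted p = 0.293), and the disulfide isomerase Pdia3 162 ± 0.714 FPKM in JIB-04 and 103 ± 12.9 FPKM in untreated liver (adjusted p = 0.0695). In all these the JIB-04 values lay above the untreated ones without passing the test. Of all tested genes 24.6% had JIB-04 values above the untreated ones.

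Along nucleotide and nucleoside breakdown, 1 of 14 tested genes was called higher and 0 lower (median -0.09). At an unadjusted p under 0.05, 1 was higher and 1 lower, and voom called 1 higher and 0 lower. The called gene was Entpd5, a nucleoside diphosphatase of the endoplasmic reticulum, with 84.0 and 76.5 FPKM in JIB-04 1 and 2, against 31.9 and 33.3 FPKM in untreated 1 and 2. It rose without overlap, 2.46-fold in mean FPKM (log2 change of 1.27 with SE 0.121, limma adjusted p = 0.00555), and the call ended without JIB-04 1 (0.0851), without JIB-04 2 (0.0787) and without the filter (0.102). The surface enzyme Entpd8 averaged 35.7 ± 0.248 FPKM in JIB-04 and 42.6 ± 1.08 FPKM in untreated liver (adjusted p = 0.375), and the nucleotidase Nt5c 17.9 ± 3.44 FPKM in JIB-04 and 20.9 ± 1.33 FPKM in untreated liver (adjusted p = 0.578).

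Purine salvage, which recycles bases before they reach urate, had 0 of 5 tested genes called by limma or voom (median 0.06), with 2 higher and 1 lower at an unadjusted p under 0.05. Hprt, which salvages hypoxanthine and guanine, averaged 43.7 ± 3.40 FPKM in JIB-04 and 34.2 ± 2.29 FPKM in untreated liver (SD, n = 2 each; limma adjusted p = 0.257). Aprt, which salvages adenine, averaged 21.2 ± 0.179 FPKM in JIB-04 and 15.4 ± 1.63 FPKM in untreated liver (adjusted p = 0.153), and adenosine kinase Adk 52.1 ± 2.21 FPKM in JIB-04 and 65.6 ± 2.58 FPKM in untreated liver (adjusted p = 0.252). De novo purine synthesis had 0 of 15 called by either tool (median 0.08), with 2 higher and 1 lower at an unadjusted p under 0.05. Paics, which carries out a middle pair of its reactions, averaged 51.6 ± 5.47 FPKM in JIB-04 and 68.7 ± 1.002 FPKM in untreated liver (adjusted p = 0.186). Prps1 averaged 17.1 ± 2.50 FPKM in JIB-04 and 16.7 ± 0.251 FPKM in untreated liver (adjusted p = 0.956) and Prpsap1 17.2 ± 0.714 FPKM in JIB-04 and 15.2 ± 1.66 FPKM in untreated liver (adjusted p = 0.606).

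The relatives of xanthine dehydrogenase and the genes of its molybdenum cofactor had 0 of 10 called by limma (median 0.01), with 3 higher at an unadjusted p under 0.05, and voom called Aox1 higher. Mtarc1, a molybdenum enzyme of mitochondria, averaged 160 ± 3.47 FPKM in JIB-04 and 167 ± 2.02 FPKM in untreated liver (SD, n = 2 each; limma adjusted p = 0.878). Mtarc2 averaged 41.5 ± 1.49 FPKM in JIB-04 and 49.5 ± 0.631 FPKM in untreated liver (adjusted p = 0.381) and sulfite oxidase Suox 33.7 ± 2.18 FPKM in JIB-04 and 40.4 ± 1.65 FPKM in untreated liver (adjusted p = 0.384).

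Among 9 tested urate transport genes 1 was called higher and 0 lower (median 0.01), with 3 higher and 2 lower at an unadjusted p under 0.05 and 2 higher and 1 lower by voom. Pdzk1, a scaffold that anchors transporters in the membrane, had 20.8 and 18.6 FPKM in JIB-04 1 and 2, against 10.6 and 9.14 FPKM in untreated 1 and 2. Mean FPKM rose 2.00-fold, a log2 change of 0.93 (SE 0.130; limma adjusted p = 0.0223). The call ended without JIB-04 1 (0.153), JIB-04 2 (0.139), untreated 1 (0.0511) or untreated 2 (0.0766), and without the filter (0.201). Slc22a7, an organic anion transporter, had 19.6 and 19.5 FPKM in JIB-04 1 and 2, against 40.5 and 30.0 FPKM in untreated 1 and 2 (adjusted p = 0.0620; voom called it lower). Slc17a2 averaged 29.6 ± 3.93 FPKM in JIB-04 and 39.5 ± 7.74 FPKM in untreated liver (adjusted p = 0.343) and Slc17a4 15.3 ± 3.70 FPKM in JIB-04 and 14.7 ± 0.505 FPKM in untreated liver (adjusted p = 0.953).

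Urate oxidase is a peroxisomal enzyme, so genes of peroxisome assembly and peroxisomal oxidases were read as well. Of 22 tested 0 were called higher and 1 lower (median 0.08), with 3 higher and 2 lower at an unadjusted p under 0.05 and 0 higher and 1 lower by voom. The lower gene was Hao1, glycolate oxidase, with 59.7 and 58.1 FPKM in JIB-04 1 and 2, against 106 and 97.7 FPKM in untreated 1 and 2. It fell by 0.78 on the log2 scale (SE 0.120, limma adjusted p = 0.0305). The call ended without JIB-04 1 (0.153), JIB-04 2 (0.197), untreated 1 (0.140) or untreated 2 (0.0689), and without the filter (0.211). Catalase (Cat), which removes the peroxide that urate oxidase forms, averaged 832 ± 111 FPKM in JIB-04 and 745 ± 25.2 FPKM in untreated liver (SD, n = 2 each; adjusted p = 0.715). Agxt, which detoxifies glyoxylate, averaged 191 ± 25.4 FPKM in JIB-04 and 154 ± 5.18 FPKM in untreated liver (adjusted p = 0.384).

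**Figure D3:**
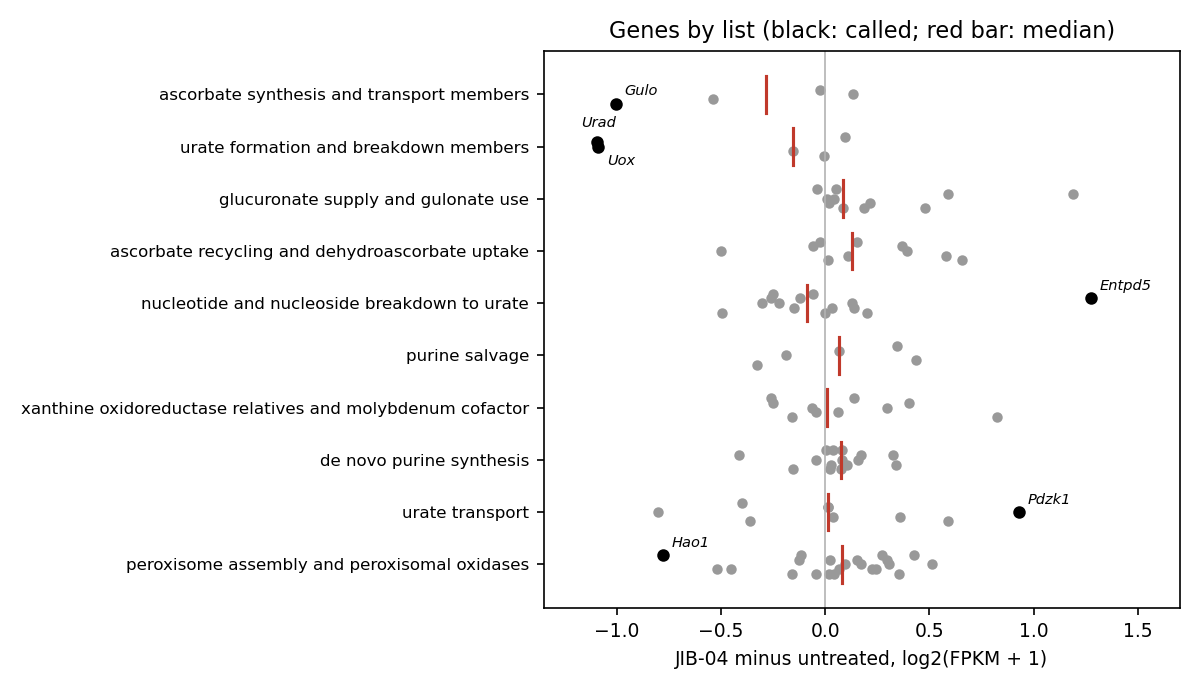
JIB-04 minus untreated on the log2(FPKM + 1) scale for each tested gene, by list, with a red bar at the list's median and black points for called genes. The called members lie between -1.09 and -1.005, and the called companion genes are Hao1 at -0.78, Pdzk1 at 0.93 and Entpd5 at 1.27.

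**Figure D4:**
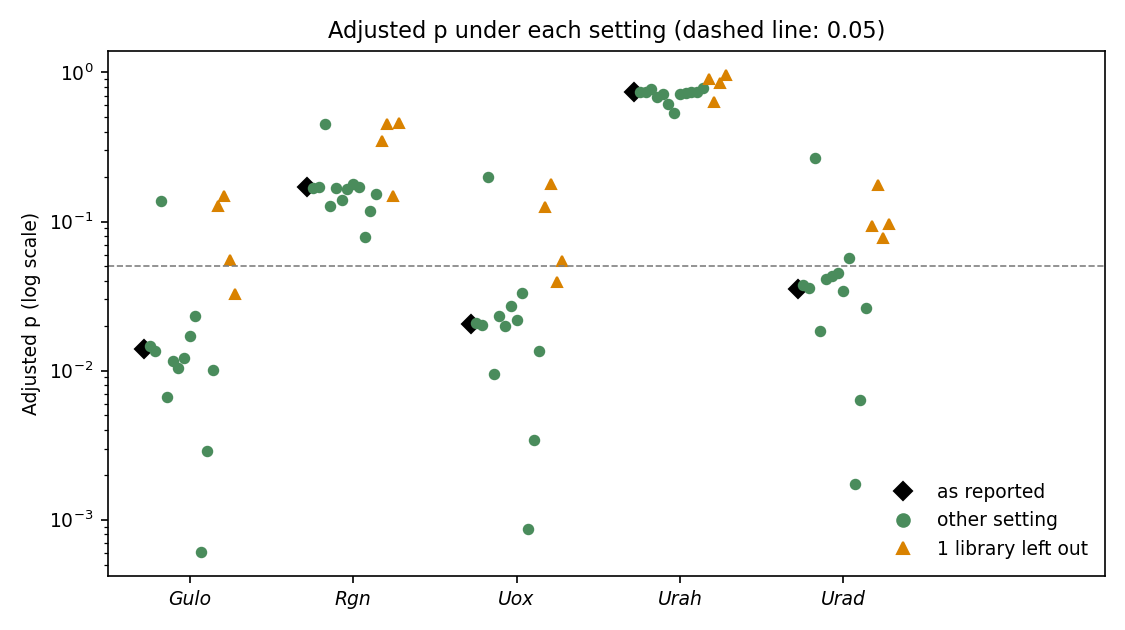
Adjusted p on a log scale for Gulo, Rgn, Uox, Urah and Urad as reported (diamond), under 12 other settings (circles) and with 1 library left out (triangles). Gulo and Uox pass 0.05 in 12 of 16 alternatives and Urad in 10, with most triangles above the line; Rgn and Urah pass in 0.

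The share of all tested genes called in either direction set the scale for the members' counts under each setting. It was 2.14% as reported and when rescaled to TPM, 1.88% to 1.98% under quantile normalization, rescaling without the top genes (1.91%), median centring (1.96%) or a pseudocount of 0.1, and 2.11% with a pseudocount of 0.5. The filter at 5 FPKM gave 4.26%, protein-coding genes alone 4.11%, voom 5.08% and the replicate block 3.3%, each with Gulo, Uox and Urad called. With neither trend nor robust moderation it was 1.44%, with Gulo and Uox called, and without a filter 0.0792%, with no member called. Leaving out JIB-04 1 or JIB-04 2 gave 0.268% or 0.213% and no member, leaving out untreated 1 gave 1.31% and Uox alone, and leaving out untreated 2 gave 1.73% and Gulo alone.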

How the data were processed

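The authors deposited 1 table of FPKM values per gene with gene lengths and coordinates, per the file headers, made on GRCm39 (mm39), per the submitters' processing notes. Not given in the sources used here are the aligner, the counter, the annotation release and the setting for strand. FPKM times length gave whole multiples of 1 read for 100% of values above 0 (tolerance 0.01), which returned 36469514 to 43283827 reads per library. Intervals from such counts would cover counting error only.

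On the log2(FPKM + 1) scale, which understates changes of low genes, the 10819 genes averaging 1 FPKM or more were tested for JIB-04 minus untreated with limma 3.58.1 in R 4.3.3 (trend and robust moderation, two-sided), adjusted over all of them by Benjamini-Hochberg. The fit was also run on counts simulated with the spread of these same libraries. That outcome is not given here, and no call is based on it. No label ties replicate numbers to a shared litter or day. The 16 alternatives cover pseudocount, filter, scaling, moderation, voom, biotype, replicate block and each library left out. Members, lists, motifs and naming rule were chosen with earlier results of these data known: every member, every called list gene, the 3 most abundant uncalled genes of each list, and Urah, Pnp2, Slc23a3 and Slc23a4. Adss1, Adss2 and Prtfdc1 were matched by synonym. The row matched to Prtfdc1 was Gm13377, annotated as an unprocessed pseudogene, with 0 reads in every library and not tested. Promoters are from RefSeq (GRCm38.p6) and shared stretches and exons from GENCODE M21. The promoter of Slc23a1, on chromosome 18, was left out of the search over the members and is not printed. A result that the naming rule would give is not reported here.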

Additional observations from a re-analysis of the deposited data

How the results depend on the processing

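The falls of Gulo, Uox and Urad kept their direction in all 16 alternatives, with log2 changes of -1.11 to -0.97, -1.21 to -0.97 and -1.31 to -0.87. The genes called numbered 232, the members 3 and the companion genes 3. Without the filter on low values limma called 20, 0 and 0 of them, with 2205, 4 and 28 at an unadjusted p under 0.05. Voom called 550 genes, 3 members and 11 companion genes, protein-coding genes alone gave 397, 3 and 8, and a mean FPKM of at least 5 gave 7 companion genes. With the replicate number as a block the counts were 357, 3 and 5. Same-numbered libraries did not deviate together (r = -0.0492 across 10819 genes, which are not independent). With 2 libraries a group this r cannot decide whether the numbers mark a pairing. With 1 library left out, the lone library of its group being assumed to vary like the other group, the counts ran from 23 to 186, from 0 to 1 and from 0 to 4. Without JIB-04 1 the log2 changes of Gulo, Uox and Urad were -1.03, -1.21 and -1.31. Without JIB-04 2 they were -0.98, -0.97 and -0.87. With 1 library left out, the log2 change of Slc23a1 ran from -0.15 (without untreated 1) to 0.42, that of Slc23a2 from -0.20 to 0.15 (0.02 without JIB-04 1, 0.15 without untreated 1), that of Xdh from -0.069 (without JIB-04 1) to 0.26, and that of Gda from -0.24 to 0.22 (0.22 without JIB-04 2, 0.03 without untreated 2), so each turned its sign. Slc23a2 has no value at a mean of at least 5 FPKM. The cause of these shifts was not tested. Across the scalings the median log2 change of all tested genes ran from -0.0303 to 0.00235, against 0.00682 as reported.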
